A study of Mus with 18 samples.

Results

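The nuclear-encoded subunits of the mitochondrial respiratory chain and ATP synthase were followed by RNA sequencing in RAW264.7, a mouse cell line with macrophage features. Members were the rows of the count table whose symbol names a subunit of complex I (Nduf genes), complex II (Sdh genes), complex III (Uqcr genes and Cyc1), complex IV (Cox genes) or complex V (Atp5 genes). The rule found 85 of 35510 genes. They were 37 of complex I, 4 of complex II, 9 of complex III, 18 of complex IV and 17 of complex V. The filter on low counts kept 80 of them among 13482 tested genes. The 5 members left out, all of complex IV, were Cox4i2, with 46 counts over all libraries, and Cox6b2, Cox7b2, Cox8b and Cox8c, each with 0 counts. All 85 symbols were found in a RefSeq table as protein-coding genes, 0 of them on the mitochondrial genome.

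There were 6 groups of 3 libraries. In 4 groups the cells received LPS, a bacterial cell wall component that activates macrophages through TLR4, and then a polymer named PPLG-SA, PPLG-2V-SA, PPLG-4V-SA or POx-SA. Another group received LPS alone, and the last was left untreated. The series describes the polymers as sialic acid polymers. Doses and times were not given in the labels, and nothing in them says that replicates came from separate cultures, so p-values measure the spread between these libraries, which may be technical.

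Complexes I and II pass electrons from NADH and succinate to ubiquinone, complex III passes them on to cytochrome c, and complex IV passes them to oxygen. Complexes I, III and IV pump protons, and complex V uses the proton gradient to make ATP. The catalytic cores hold a few large subunits, some of them encoded in the mitochondrial genome, surrounded by many small accessory subunits encoded in the nucleus. In macrophages, LPS is known to shift energy metabolism from respiration towards glycolysis, and succinate oxidation by complex II is known to take part in the inflammatory response.

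Levels are given as CPM, counts scaled to a common library size. Gene symbols are those of the count table, in which Atp5a1 and Atp5b are the alpha and beta subunits of ATP synthase. Library totals were 9755591 to 19759549 counts, lowest in untreated cells. Of 10 macrophage markers, all 10 were tested, and their summed level was 4609 to 4867 CPM with LPS + PPLG-SA, 3944 to 4463 with LPS + PPLG-2V-SA, 4883 to 5282 with LPS + PPLG-4V-SA, 5518 to 8151 with LPS + POx-SA, 7016 to 8103 with LPS and 11726 to 12849 in untreated cells. Lymphocyte and epithelial markers summed to at most 1.60 CPM in any library. A list of 7 neutrophil and mast cell genes summed to at most 0.206 CPM in the PPLG groups, 36.1 to 63.7 CPM with LPS + POx-SA, 150 to 255 CPM with LPS and 2396 to 2655 CPM in untreated cells. Nearly all of it was S100a8, which averaged 191 CPM with LPS and 2492 CPM in untreated cells, and Elane, Cpa3 and Kit were at 0 throughout. The part of these marker lists in the results was not tested.

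Members together held 0.718% to 1.03% of the counts of a library. The mean share was 0.746% in untreated cells, 0.826% with LPS and 0.861% with LPS + POx-SA. It was 0.829%, 0.889% and 0.837% with LPS + PPLG-SA, LPS + PPLG-2V-SA and LPS + PPLG-4V-SA. CPM also divides by a TMM factor per library, 0.812 to 0.819 in untreated cells and 1.06 to 1.15 in the PPLG groups. Members held their smallest mean share in untreated cells, although their CPM there lay above that of every PPLG library. Their summed level was 7411 to 8030 CPM with LPS + PPLG-SA, 7347 to 8652 with LPS + PPLG-2V-SA and 7465 to 7679 with LPS + PPLG-4V-SA. It was 7198, 9292 and 11593 CPM in the 3 LPS + POx-SA libraries, 7820, 6905 and 10587 CPM in the 3 LPS libraries and 8995 to 9243 CPM in untreated cells. Replicate 3 of LPS lay above the other LPS libraries, and the LPS + POx-SA libraries were spread widely, with replicate 1 lowest and replicate 3 highest. The median member deviated from its group mean by 0.40 on the log2 scale in LPS replicate 3, and by -0.33, -0.02 and 0.35 in LPS + POx-SA replicates 1, 2 and 3. In bulk RNA, fewer cells of a type and less RNA per cell cannot be told apart.

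**Figure D1:**
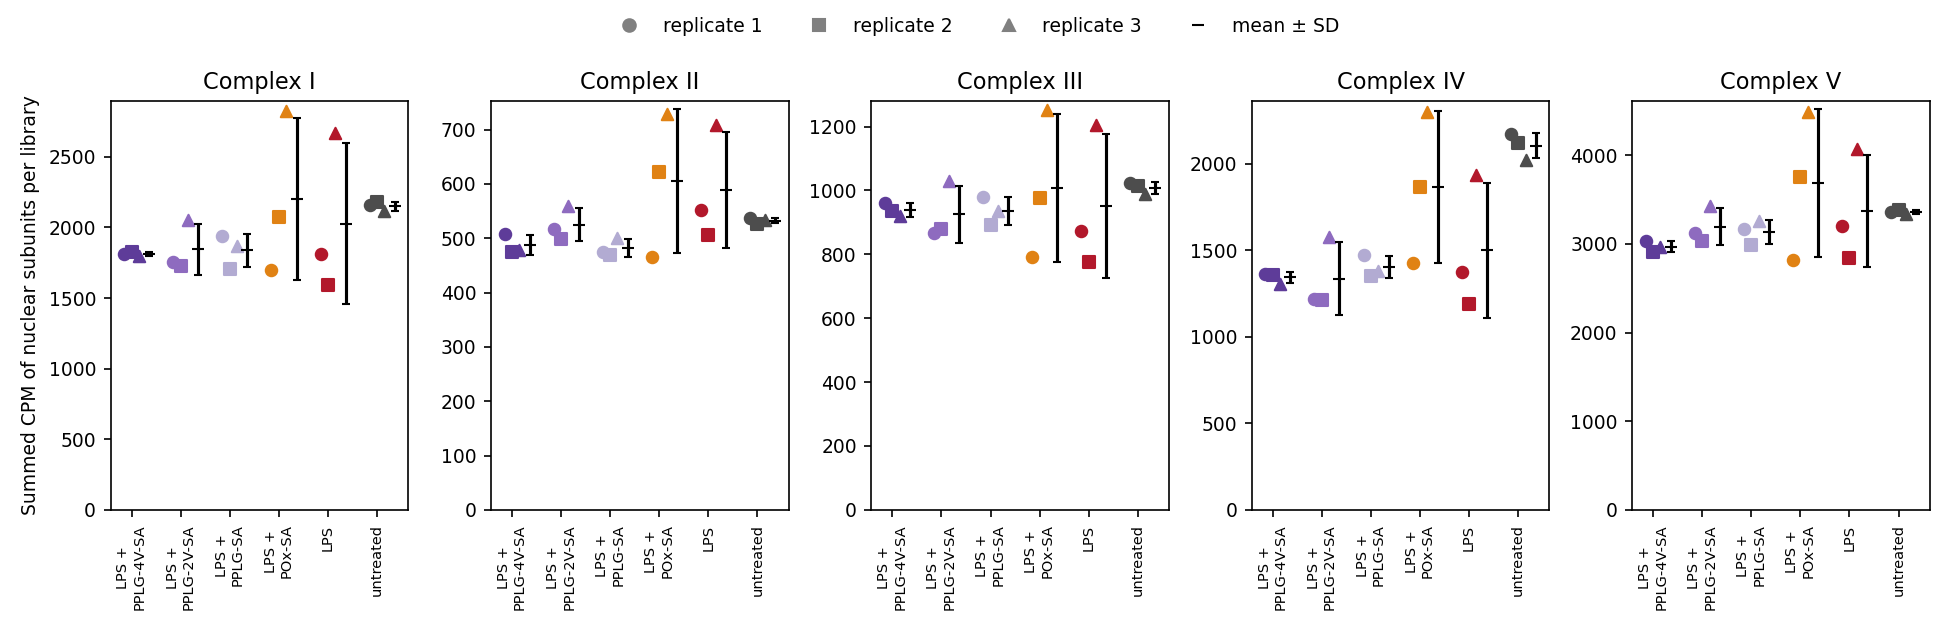
Summed CPM of the nuclear subunits of each complex in every library, with groups on the horizontal axis and a marker shape per replicate. Bars show mean and SD over 3 libraries. In LPS + POx-SA and LPS, replicate 3 lies highest in all 5 complexes, while the 3 untreated libraries lie close together.

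Most members have short transcripts. The length implied by the deposited counts and FPKM (fragments per kilobase of transcript, scaled to library size) was under 600 bases for 50 of 79 members. It is an effective length, which a program shortens for transcripts near the fragment size, and it differed between libraries. For Atp5k, a small subunit of the membrane part of ATP synthase, it was 35.1 to 40.3 bases with LPS + PPLG-SA, within the same bounds with LPS + PPLG-2V-SA and 26.0 to 38.6 with LPS + PPLG-4V-SA. It was 49.9 to 98.3 bases with LPS + POx-SA, 75.8 to 103 with LPS and 102 to 116 in untreated cells. For Sdha, a long transcript, it was 2851 to 2875 bases with LPS + PPLG-SA, 2811 to 2847 with LPS and 2954 to 2974 in untreated cells. Counts and FPKM gave different fold changes for short members, and both are reported, although FPKM was not rescaled between libraries as the counts were.

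Members called the same way on counts, on log2(FPKM + 1) by limma and on counts with an offset for transcript length are named below as called by all 3 measures. The length offset was chosen after seeing the data. Shares of all tested genes called are given below for the edgeR test on counts only. Counts of members on FPKM or with the length offset therefore stand without that background. The part of library fragment size in the calls was not tested.

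**Figure D2:**
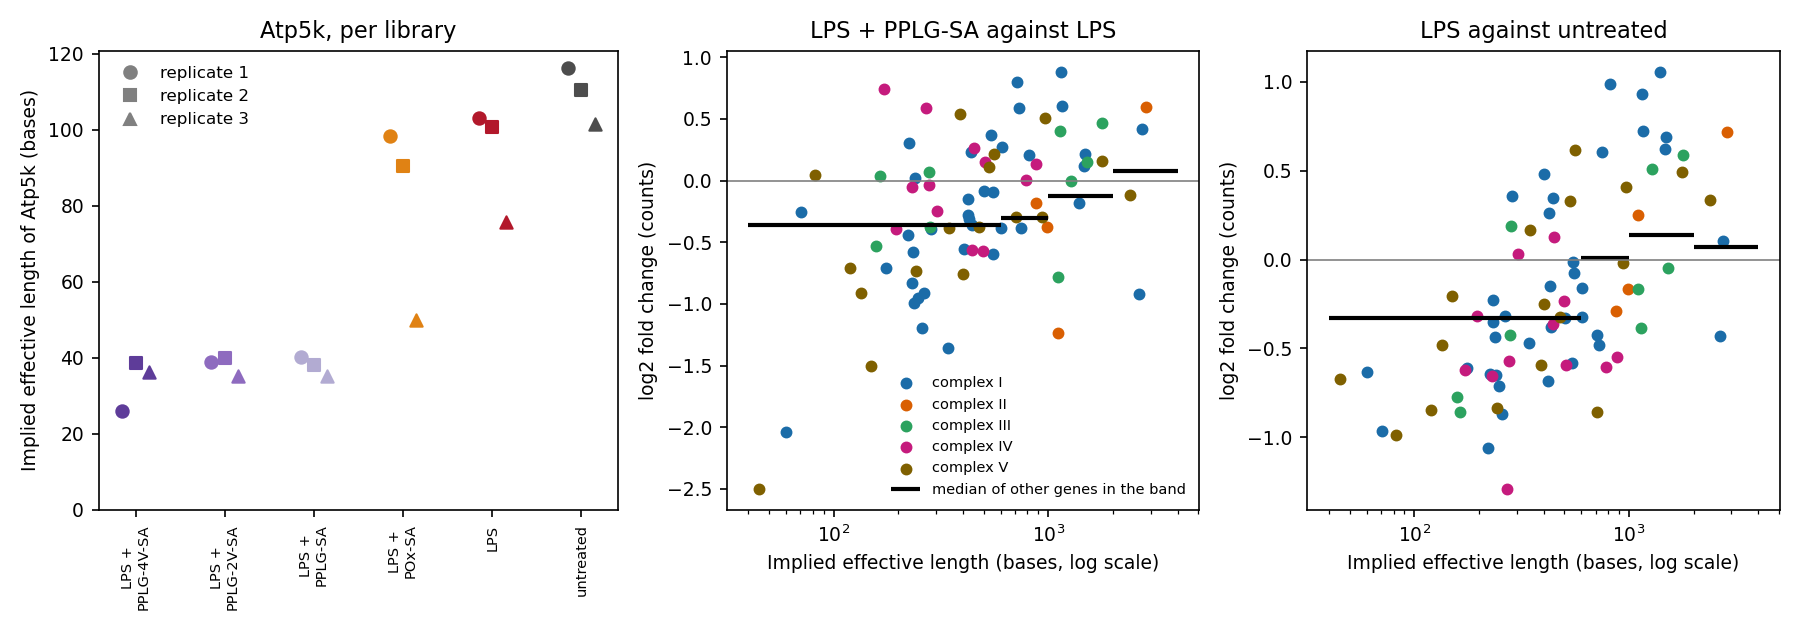
Left, effective length of Atp5k in bases implied by counts and FPKM, per library: the 9 PPLG libraries lie at 40.3 or below and the untreated libraries at 102 or above. Middle and right, log2 fold change of members (counts) against implied length on a log axis, coloured by complex, with the median of all other genes in 4 length bands as black bars.

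LPS was first set against no treatment. Among those that rose were Ndufv1 and Ndufv2 of the NADH module, Sdha, and the alpha, beta and gamma subunits of ATP synthase, and those that fell included Ndufa1, Cox6a1 and Atp5d. By edgeR's quasi-likelihood test on counts, 13 of 80 members rose, beside 30.8% of all tested genes, and 34 fell, beside 28.4%, with 59.2% of all tested genes called either way. The median log2 fold change of members was -0.32, and that of all genes 0.02. On FPKM 23 members rose and 5 fell, with a median of 0.03 while that of all genes was 0.31. With the length offset 23 rose and 26 fell. The numbers that rose and fell thus depended on the scale, while the median of members lay below that of all genes on counts and on FPKM. Called by all 3 measures were 12 that rose and 5 that fell.

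In complex I, 7 of 37 members rose and 14 fell. Ndufv2, which holds an iron-sulphur cluster beside the NADH site, had 72.1, 59.8 and 95.6 CPM with LPS, against 32.3, 38.2 and 38.8 CPM in untreated cells. The libraries did not overlap, and its log2 fold change was 1.06 ± 0.21 (SE), with an adjusted p of 0.00029. Ndufv1, which binds NADH, rose by 0.62 ± 0.16 (adjusted p = 0.0035). The accessory subunits Ndufa9 and Ndufa10 rose by 0.93 and 0.72 on the log2 scale.

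Other calls in complex I were lost when a library was left out. Ndufa12 had 50.6, 42.7 and 127 CPM with LPS, against 36.9, 34.7 and 39.4 CPM in untreated cells. Its log2 fold change of 0.99 was 0.34 without LPS replicate 3 (adjusted p = 0.28), and the adjusted p was 0.051 and 0.06 without untreated replicates 1 and 2. Ndufs4, an accessory subunit needed for a stable NADH module, rose by 0.61, and was at 0.30 without that library (adjusted p = 0.16), with adjusted p of 0.051 and 0.067 without untreated replicates 2 and 3. Ndufs1, the largest iron-sulphur subunit, had 79.4, 79.3 and 78.7 CPM with LPS and 71.5, 72.2 and 77.5 CPM in untreated cells, and was not called (0.10 ± 0.10).

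Of the 14 members of complex I that fell, Ndufa1 had the lowest fold change. It had 22.8, 16.3 and 31.5 CPM with LPS, against 49.9, 51.6 and 45.4 CPM in untreated cells. The groups did not overlap, and its log2 fold change was -1.06 ± 0.20 (adjusted p = 0.00022). Ndufv3, an accessory subunit of the NADH module, had a log2 fold change of -0.87, and both genes were called by all 3 measures. Ndufa3, at -0.97, and Ndufa4, at -0.64, were called on counts, as were the core subunits Ndufs3, at -0.48, and Ndufs7, at -0.58. On FPKM these core subunits were not called (-0.14 and -0.23). Ndufa4 carries a complex I name and is now counted with complex IV.

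In complex II, which has no mitochondrially encoded subunit, 1 of 4 members rose and 0 fell. Sdha, the flavoprotein that oxidizes succinate, had 126, 124 and 159 CPM with LPS, against 82.8, 82.2 and 84.2 CPM in untreated cells. All LPS libraries lay above all untreated ones, and the log2 fold change was 0.72 ± 0.14 (adjusted p = 0.00024). The iron-sulphur subunit Sdhb (-0.29) and the membrane anchors Sdhc (-0.16) and Sdhd (0.25) were not called.

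In complex III, 2 of 9 members rose and 4 fell. Cytochrome c1, Cyc1, rose by 0.51 ± 0.14 (adjusted p = 0.0057), and the core protein Uqcrc2 rose by 0.59. The Rieske iron-sulphur protein Uqcrfs1 had 71.2, 64.5 and 72.6 CPM with LPS, against 94.2, 91.0 and 86.6 CPM in untreated cells. Its groups did not overlap, and its log2 fold change was -0.38 ± 0.10 (adjusted p = 0.0037) on counts. The small subunit Uqcr10 was at -0.86, and Uqcrc1 (-0.05) was not called on counts.

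In complex IV, 0 of 13 tested members rose and 8 fell, the median being -0.57. Cox6a1, the general isoform of a small subunit, had 78.7, 73.0 and 127 CPM with LPS, against 233, 236 and 212 CPM in untreated cells. No library overlapped, the log2 fold change was -1.29 ± 0.20 (adjusted p = 2.2e-05), and this was the only fall in complex IV called by all 3 measures. Cox5a fell by 0.36, with an adjusted p of 0.076 without LPS replicate 2. Cox4i1 (-0.24) and Cox5b (0.03) were not called.

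In complex V, 3 of 17 members rose and 8 fell. Atp5b averaged 970 ± 174 CPM with LPS and 689 ± 12.2 CPM in untreated cells (SD, n = 3 each), and its log2 fold change was 0.49 (edgeR, adjusted p = 0.014). Without LPS replicate 3 the adjusted p was 0.078. Atp5a1 rose by 0.33, with adjusted p of 0.054 to 0.086 without that library or any untreated one, and the gamma subunit Atp5c1 by 0.41. The delta subunit Atp5d had 170, 152 and 189 CPM with LPS, against 320, 304 and 302 CPM in untreated cells. Its log2 fold change was -0.86 ± 0.12 (adjusted p = 9.0e-06), while Atp5md and Atp5mpl, small membrane subunits, were at -0.98 and -0.85. Atpif1, the inhibitor of the synthase and not a member by its symbol, rose by 0.61, was at 0.28 without LPS replicate 3 (adjusted p = 0.29) and had adjusted p of 0.075 to 0.1 without each untreated library.

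Under 600 bases 0 members rose and 27 of 50 fell, while 12.7% of other genes of that length rose and 39.3% fell. Of 1000 to 2000 bases, 8 of 12 members rose and 1 fell, beside 35.7% and 23.9% of other genes. Spearman's rho of implied length with log2 fold change was 0.66 across 79 members and -0.00 across 11765 other genes, which share the same libraries. The 2 sets cover unlike lengths, since 7827 of the other genes and 4 members were over 2000 bases. Other genes had medians of -0.33 under 600 bases, 0.01 at 600 to 1000, 0.14 at 1000 to 2000 and 0.07 over 2000. Members had -0.43, -0.29, 0.55 and 0.22 in these bands. Without LPS replicate 3, 8 members rose, and without LPS replicate 2, 21 fell, against 13 and 34 with all libraries. Without replicate 3 of both LPS and LPS + POx-SA, 12 rose and 52 fell.

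LPS + POx-SA was next set against LPS. Most rises lay in complexes I and IV, which hold 37 and 13 of the 80 tested members. On counts 13 of 80 members rose, beside 22.2% of all tested genes, and 2 fell, beside 24.1%, with 46.3% called either way. The median of members was 0.20, with 0.00 for all genes. On FPKM 10 rose and 2 fell, and with the length offset 24 rose and 13 fell. Called by all 3 measures were 10 that rose and 0 that fell.

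In complex I, 6 members rose and 1 fell. Ndufs8, which carries iron-sulphur clusters near the ubiquinone site, had 103, 113 and 174 CPM with LPS + POx-SA, against 57.8, 46.1 and 86.8 CPM with LPS. All 3 polymer libraries lay above all LPS libraries, and the log2 fold change was 1.03 ± 0.20 (adjusted p = 0.0004). Ndufb5 rose by 0.82, Ndufs7, which carries the last iron-sulphur cluster before ubiquinone, by 0.71, and Ndufa4 by 0.76. Ndufa9 rose by 0.63 and was at 0.24 without LPS + POx-SA replicate 3 (adjusted p = 0.33), with adjusted p of 0.17 and 0.16 without LPS replicates 1 and 2. Ndufv3 fell by 0.58, with adjusted p of 0.053 and 0.22 without LPS replicates 1 and 3 and of 0.2 and 0.12 without LPS + POx-SA replicates 1 and 2.

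Complex II had 0 calls, with Sdha at -0.02, Sdhb at 0.13, Sdhc at -0.09 and Sdhd at 0.09. In complex III 1 of 9 members rose, Uqcrfs1, by 0.43 ± 0.10 (adjusted p = 0.0021). Its level was 80.3, 106 and 94.3 CPM with LPS + POx-SA, against 71.2, 64.5 and 72.6 CPM with LPS. These libraries did not overlap.

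In complex IV, 4 of 13 members rose and 0 fell. Cox5a had 170, 206 and 194 CPM with LPS + POx-SA, against 138, 115 and 152 CPM with LPS, with a log2 fold change of 0.49 ± 0.11 (adjusted p = 0.0018). The groups did not overlap. Cox7a2 rose by 0.72. Cox6a1 rose by 0.65, with adjusted p of 0.054 and 0.06 without LPS replicates 1 and 2 and of 0.052 without LPS + POx-SA replicate 3. Cox6a2, an isoform typical of heart and skeletal muscle, rose by 0.91 at a low level, with 7.57, 13.2 and 14.5 CPM with LPS + POx-SA, against 5.87, 6.00 and 6.92 CPM with LPS. In complex V, 2 members rose and 1, Atp5k, fell (-0.47), with adjusted p of 0.13 without LPS replicate 3 and 0.073 without LPS + POx-SA replicate 1. Atp5a1 (-0.17) and Atp5b (0.23) were not called.

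The counts moved with single libraries. Without LPS replicate 3, 40 members rose and 0 fell. Without LPS + POx-SA replicate 1, 29 rose and 0 fell. Without LPS + POx-SA replicate 3, 7 fell, and without replicate 3 of both groups 33 rose and 2 fell. With only these 6 libraries in the fit, 4 rose and 0 fell, with 19 rising and 2 falling once replicate number was a block.

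The 3 PPLG polymers were each set against the same LPS libraries, so their values share a control and are given side by side. Within complex II, Sdha rose and Sdhd fell with each of the 3, on counts, on FPKM and with the length offset. Sdha had 190, 202 and 225 CPM with LPS + PPLG-SA, 241, 237 and 239 CPM with LPS + PPLG-2V-SA and 206, 198 and 207 CPM with LPS + PPLG-4V-SA, against 126, 124 and 159 CPM with LPS. Every PPLG library lay above every LPS library. The log2 fold changes were 0.59 ± 0.13, 0.81 ± 0.14 and 0.58 ± 0.13 (adjusted p = 0.0011, 5.8e-05 and 0.0015).

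Sdhd, a membrane anchor that binds haem and ubiquinone, had 104, 99.2 and 106 CPM with LPS + PPLG-SA, 100, 98.3 and 118 CPM with LPS + PPLG-2V-SA and 109, 104 and 100 CPM with LPS + PPLG-4V-SA, against 230, 205 and 294 CPM with LPS. Every PPLG library lay below every LPS library, and below the 199 to 211 CPM of untreated cells. The log2 fold changes were -1.23 ± 0.15, -1.20 ± 0.15 and -1.22 ± 0.15 (adjusted p = 1.8e-06, 1.8e-06 and 2.3e-06). On FPKM they were -1.06, -0.94 and -0.97, and with the length offset -1.07, -1.07 and -1.12, and the implied length of Sdhd was over 1000 bases in each library. Sdhb was not called in any of the 3 (-0.18, -0.16 and -0.18). Sdhc was called with LPS + PPLG-SA (-0.38) and not with LPS + PPLG-2V-SA or LPS + PPLG-4V-SA (-0.27 each). That call had an adjusted p of 0.07 without LPS replicate 3 and of 0.063 without LPS + PPLG-SA replicate 2.

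**Figure D3:**
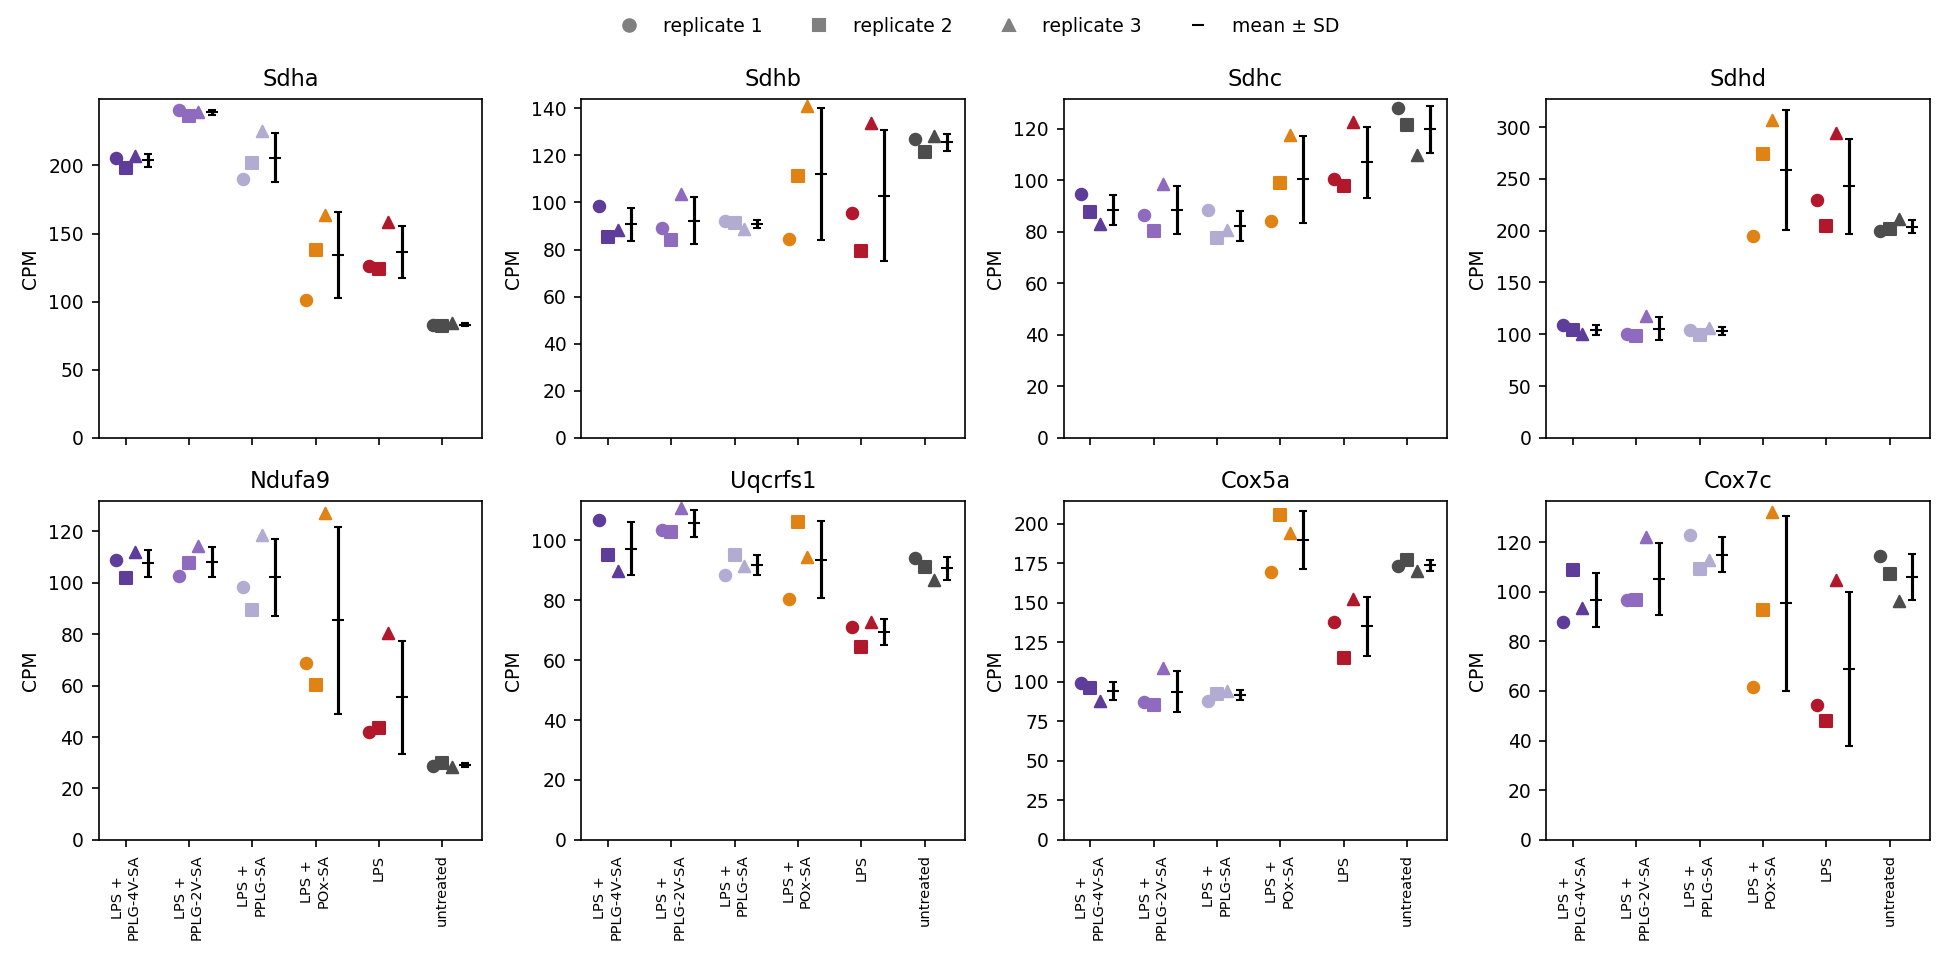
CPM of the 4 complex II subunits, Ndufa9, Uqcrfs1, Cox5a and Cox7c in every library, with a marker shape per replicate and the mean and SD over 3 libraries. Sdhd lies at 98.3 to 118 CPM in the 9 PPLG libraries and at 195 or above in the other 9, while Sdha lies at 190 or above in the PPLG libraries and below 165 in the others.

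Over the whole family, 13 members rose and 25 fell on counts with LPS + PPLG-SA, beside 29.2% and 30.7% of all tested genes (59.9% either way). With LPS + PPLG-2V-SA 14 rose and 27 fell, beside 30.8% and 30.2% (61.0% either way). With LPS + PPLG-4V-SA 11 rose and 24 fell, beside 28.0% and 27.1% (55.1% either way). The medians of members were -0.18, -0.14 and -0.20, and those of all genes -0.00, 0.03 and 0.02. On FPKM 24, 32 and 26 members rose and 9, 8 and 6 fell, given without the share of all genes called on that scale. Medians of members on that scale were 0.19, 0.27 and 0.22, beside 0.08, 0.19 and 0.17 for all genes. With the length offset 30, 32 and 27 rose and 19, 18 and 18 fell. All 3 measures called 13 rises and 9 falls for LPS + PPLG-SA, 14 rises and 8 falls for LPS + PPLG-2V-SA, and 10 rises and 6 falls for LPS + PPLG-4V-SA.

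**Figure D4:**
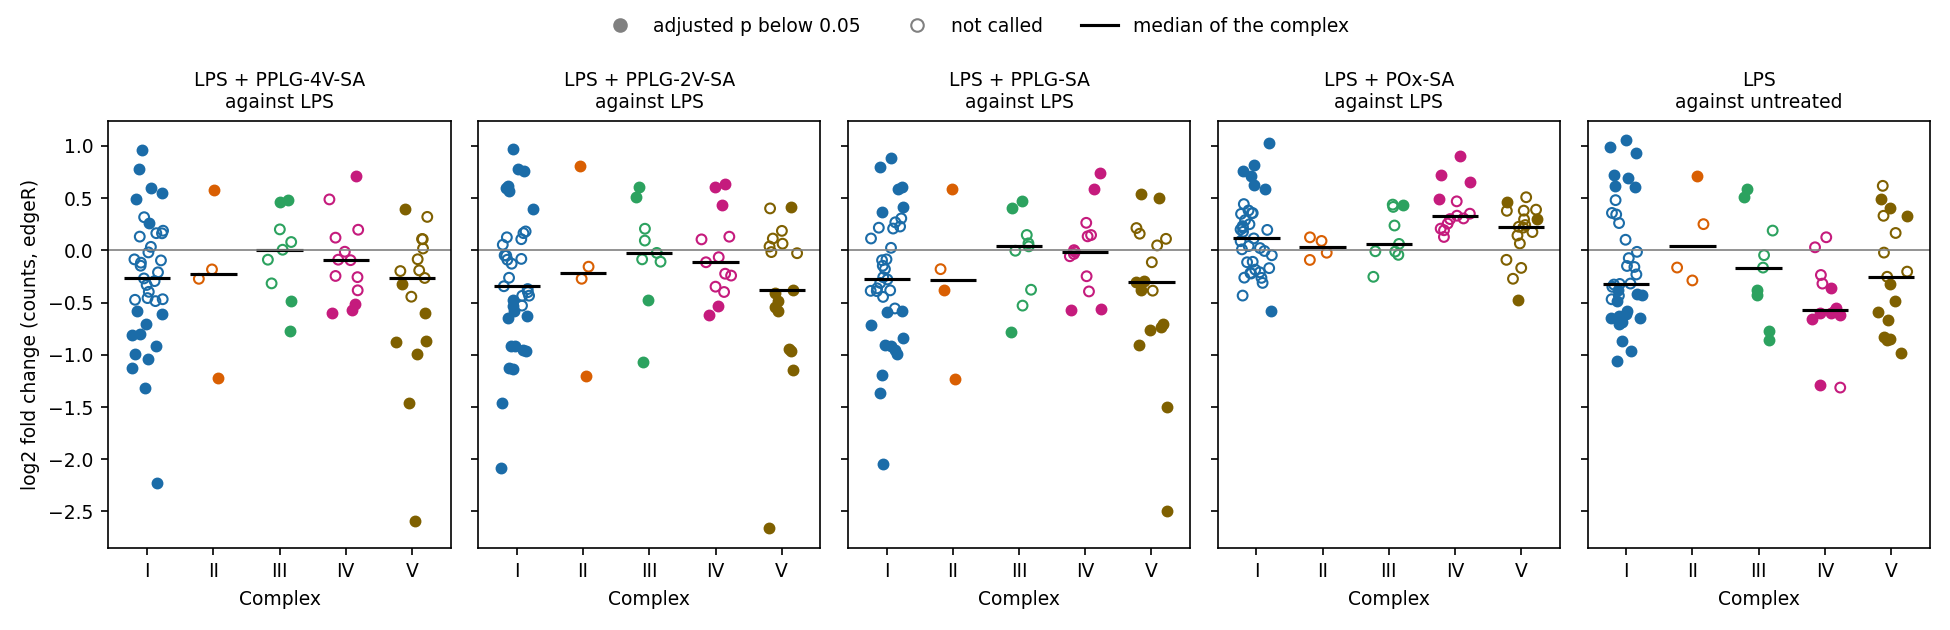
Log2 fold change on counts of the 80 tested members by complex, for each polymer against LPS and for LPS against untreated, with filled points called at an adjusted p below 0.05 and bars at the median of each complex. Complex IV holds 0 rises in LPS against untreated and 4 rises with 0 falls in LPS + POx-SA against LPS.

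In complex I, 6, 7 and 6 of 37 members rose with LPS + PPLG-SA, LPS + PPLG-2V-SA and LPS + PPLG-4V-SA, and 11, 13 and 11 fell. Ndufa9 had 98.4, 89.2 and 119 CPM with LPS + PPLG-SA, 103, 108 and 114 CPM with LPS + PPLG-2V-SA and 109, 102 and 112 CPM with LPS + PPLG-4V-SA, against 42.0, 43.6 and 80.5 CPM with LPS. The groups did not overlap, and its log2 fold changes were 0.88, 0.97 and 0.96, each with an SE of 0.24 (adjusted p = 0.0046, 0.0022 and 0.0028). Ndufb5 rose by 0.80, 0.76 and 0.78, and Ndufa10 by 0.61, 0.62 and 0.55. These 3 genes were called by all 3 measures with each polymer.

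Of the core subunits of complex I, Ndufs3 rose by 0.58, 0.39 and 0.49 and Ndufs7 by 0.37, 0.57 and 0.60, and all 3 measures called each of these. The adjusted p of Ndufs3 with LPS + PPLG-4V-SA was 0.071 and 0.076 without LPS replicates 1 and 2. Leaving out libraries was not run for Ndufs3 with LPS + PPLG-2V-SA or for Ndufs7 with LPS + PPLG-SA or LPS + PPLG-2V-SA. Ndufs1 rose by 0.42 ± 0.10, 0.78 ± 0.10 and 0.26 ± 0.10, the last with adjusted p of 0.17 without LPS + PPLG-4V-SA replicate 1 and of 0.066 to 0.1 without each LPS library. Ndufv1 (0.11, 0.17 and 0.03) was not called. Ndufs4 was called with LPS + PPLG-2V-SA (-0.65), with an adjusted p of 0.09 without LPS replicate 3.

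The falls of complex I were led by short transcripts. Ndufb1, an accessory subunit of the membrane arm, had 11.6, 8.99 and 8.08 CPM with LPS + PPLG-SA, 8.95, 7.88 and 10.9 CPM with LPS + PPLG-2V-SA and 6.37, 10.6 and 8.10 CPM with LPS + PPLG-4V-SA, against 42.4, 33.3 and 42.1 CPM with LPS. The groups lay far apart. Its log2 fold changes were -2.04, -2.08 and -2.23 on counts and -0.82, -0.78 and -0.80 on FPKM, and it was called by all 3 measures each time. Ndufa2, with log2 fold changes of -1.36, -1.46 and -1.31 on counts, was also at -0.95, -0.97 and -0.79 on FPKM, and Ndufs5 and Ndufv3 lay between -0.99 and -1.19 on counts. Not all falls were in short transcripts. Ndufa11, with an implied length of 2643 bases, was called with each polymer on counts, at -0.92, -0.96 and -0.99.

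In complex III, 2 members rose in each comparison, and 1, 2 and 2 fell. Uqcrfs1 had 88.5, 95.2 and 91.4 CPM with LPS + PPLG-SA, 103, 103 and 111 CPM with LPS + PPLG-2V-SA and 107, 95 and 89.8 CPM with LPS + PPLG-4V-SA, against 71.2, 64.5 and 72.6 CPM with LPS. All lay above LPS, with log2 fold changes of 0.40, 0.61 and 0.49, each with an SE of 0.10. Cyc1 (-0.00, -0.11 and 0.08) and Uqcrc1 (0.15, 0.21 and 0.20) were not called. Uqcrq, a small subunit next to cytochrome b, fell by 1.07 ± 0.24 with LPS + PPLG-2V-SA (adjusted p = 0.00089).

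In complex IV, 2, 3 and 1 of 13 members rose and 2, 2 and 3 fell. Cox5a had 88.1, 92.4 and 94.3 CPM with LPS + PPLG-SA, 87.0, 85.3 and 108 CPM with LPS + PPLG-2V-SA and 99.1, 96.0 and 87.9 CPM with LPS + PPLG-4V-SA, against 138, 115 and 152 CPM with LPS. Every PPLG library lay below every LPS library, and the log2 fold changes were -0.56, -0.53 and -0.52, each with an SE of 0.11. Cox4i1, the main isoform of a regulatory subunit, had log2 fold changes of -0.57, -0.62 and -0.58, with adjusted p of 0.095, 0.055 and 0.09 without LPS replicate 3. These values of Cox5a and Cox4i1 are on counts. On FPKM 1 member of complex IV fell with LPS + PPLG-SA. With LPS + PPLG-2V-SA and LPS + PPLG-4V-SA 0 fell on FPKM, so neither gene was called there on that scale. Cox6a1 rose by 0.59, 0.64 and 0.71. Its adjusted p with LPS + PPLG-SA was 0.058 to 0.073 without LPS replicate 1 or 2 or LPS + PPLG-SA replicate 1, and with LPS + PPLG-2V-SA it was 0.061 without replicate 3 of that group. Cox7c, a small structural subunit, rose by 0.74 with LPS + PPLG-SA (adjusted p = 0.019) and by 0.61 with LPS + PPLG-2V-SA (adjusted p = 0.045), and was not called with LPS + PPLG-4V-SA (0.49). Leaving out LPS replicate 1 or 2 or LPS + PPLG-SA replicate 1 ended the first call (adjusted p = 0.052 to 0.091), and leaving out LPS replicate 1 or 2 or any LPS + PPLG-2V-SA library ended the second (adjusted p = 0.056 to 0.19).

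In complex V, 2, 1 and 1 of 17 members rose and 9, 9 and 7 fell. Atp5k had 9.01, 6.59 and 6.87 CPM with LPS + PPLG-SA, 6.32, 6.05 and 7.62 CPM with LPS + PPLG-2V-SA and 5.59, 7.56 and 7.90 CPM with LPS + PPLG-4V-SA, against 38.7, 36.0 and 52.3 CPM with LPS. The log2 fold changes were -2.50, -2.66 and -2.59, each with an SE of 0.17 (adjusted p = 1.5e-09, 4.1e-10 and 9.6e-10), on FPKM -1.09, -1.16 and -0.94, and with the length offset -1.70, -1.72 and -1.65. It was the largest fall of any member on counts in each of the 3 comparisons. Atp5j2, another small membrane subunit, was at -1.50, -1.14 and -1.46 on counts. The catalytic alpha and beta subunits were not called, with Atp5a1 at -0.11, 0.04 and -0.19 and Atp5b at 0.16, 0.19 and 0.02.

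**Figure D5:**
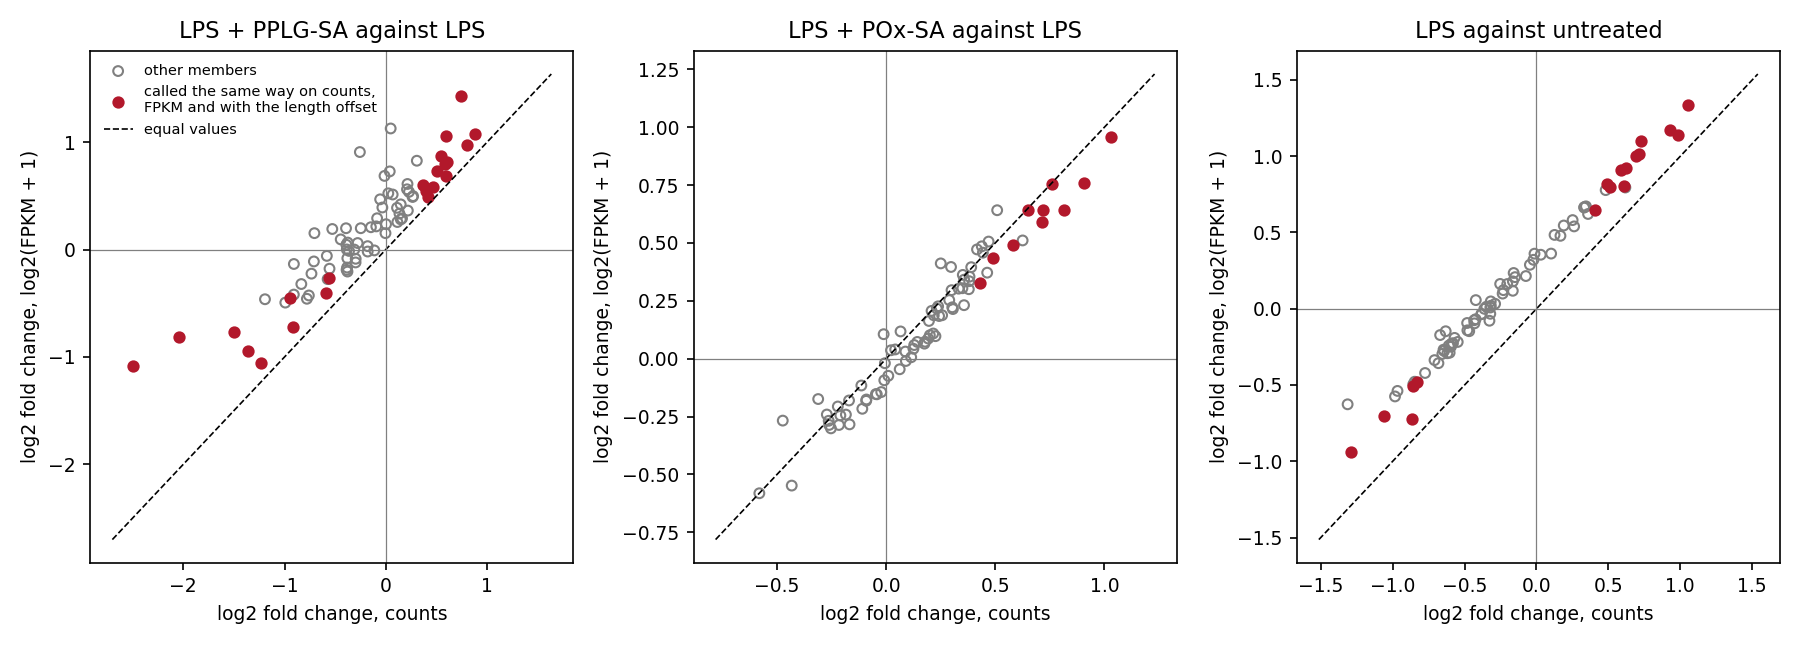
Log2 fold change of each member on log2(FPKM + 1) against that on counts, for LPS + PPLG-SA against LPS, LPS + POx-SA against LPS and LPS against untreated, with members called by all 3 measures in red and a dashed line of equal values. In LPS + PPLG-SA against LPS the FPKM value of Atp5k is -1.09 where the count value is -2.50.

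Spearman's rho of implied length with log2 fold change was 0.44, 0.42 and 0.46 across 79 members for the PPLG polymers, and 0.20, 0.17 and 0.16 across 11765 other genes. As above, the sets cover unlike lengths, with 4 members and 7827 other genes over 2000 bases. Under 600 bases, members had medians of -0.38, -0.40 and -0.32 and other genes -0.36, -0.45 and -0.38. Leaving out replicate 3 of LPS and of LPS + POx-SA gave 30, 28 and 21 members that rose and 23, 22 and 23 that fell. Without LPS + PPLG-2V-SA replicate 3, 9 members rose with that polymer.

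PPLG-SA and POx-SA were also compared with each other after LPS. On counts 2 members rose with LPS + PPLG-SA relative to LPS + POx-SA, beside 28.3% of all tested genes, and 34 fell, beside 29.5% (57.7% either way). On FPKM 16 rose and 11 fell, and with the length offset 24 rose and 17 fell, while all 3 measures called 2 that rose and 11 that fell. Sdha (0.61 ± 0.13, adjusted p = 0.00085) and Uqcrc2 (0.51 ± 0.13, adjusted p = 0.0023) rose. Sdhd had 104, 99.2 and 106 CPM with LPS + PPLG-SA, against 195, 274 and 307 CPM with LPS + POx-SA, and Cox5a had 88.1, 92.4 and 94.3 CPM with LPS + PPLG-SA, against 170, 206 and 194 CPM with LPS + POx-SA. Neither gene overlapped between groups, and the log2 fold changes were -1.33 ± 0.15 (adjusted p = 7.5e-07) and -1.05 ± 0.11 (adjusted p = 6.0e-07). Without LPS + POx-SA replicate 1, 52 members fell, and without LPS + POx-SA replicate 3, 7 rose.

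Between PPLG polymers, the number of members called depended on the fit. Of 80 members, 1 rose and 1 fell with LPS + PPLG-2V-SA relative to LPS + PPLG-SA, beside 14.7% and 13.2% of all tested genes (27.9% either way), while the fit of only these 6 libraries gave 8 that rose and 7 that fell and the length offset 9 and 1. With LPS + PPLG-4V-SA relative to LPS + PPLG-SA, 0 rose and 0 fell by edgeR, beside 1.08% and 0.579% (1.65% either way). At an unadjusted p under 0.05 there were also 0, DESeq2, limma on FPKM and the length offset called 0, and the fit of only these 6 libraries called 1 that rose and 6 that fell. With LPS + PPLG-4V-SA relative to LPS + PPLG-2V-SA, 0 rose and 1 fell, beside 7.53% and 4.47% (12.0% either way), while the fit of only these 6 libraries gave 4 that rose and 8 that fell and the length offset 0 and 9. The 95% intervals lay within a 1.5-fold change in either direction for 66, 67 and 61 of 80 members in these 3 comparisons, and within 2-fold for 78, 79 and 79.

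Ndufs1 was called between LPS + PPLG-2V-SA and each of the other PPLG groups. It had 130, 140 and 136 CPM with LPS + PPLG-2V-SA, against 106, 100 and 111 CPM with LPS + PPLG-SA, and 104, 89.3 and 91.2 CPM with LPS + PPLG-4V-SA. The LPS + PPLG-2V-SA libraries lay above all others. The log2 fold change was 0.36 ± 0.10 for LPS + PPLG-2V-SA against LPS + PPLG-SA (adjusted p = 0.014) and -0.51 ± 0.10 for LPS + PPLG-4V-SA against LPS + PPLG-2V-SA (adjusted p = 0.0023), and all 3 measures called both. The first had adjusted p of 0.064 without LPS + PPLG-SA replicate 2 and 0.053 without LPS + PPLG-2V-SA replicate 2. Cox7a2l, a factor that joins complexes III and IV, had a log2 fold change of -0.48 with LPS + PPLG-2V-SA against LPS + PPLG-SA (adjusted p = 0.049). Leaving out any LPS + PPLG-SA library, or LPS + PPLG-2V-SA replicate 1 or 2, ended that call (adjusted p = 0.079 to 0.15).

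Of the 13 subunits encoded in the mitochondrial genome, 2 rose and 7 fell with LPS against untreated, beside 30.8% and 28.4% of all tested genes. With LPS + POx-SA against LPS 10 rose and 0 fell, beside 22.2% and 24.1%. With LPS + PPLG-SA, LPS + PPLG-2V-SA and LPS + PPLG-4V-SA against LPS, 3, 6 and 5 rose and 2, 1 and 1 fell. Of all tested genes 29.2%, 30.8% and 28.0% rose and 30.7%, 30.2% and 27.1% fell in these 3 comparisons. The summed level of these mitochondrially encoded subunits was 71429, 56836 and 55560 CPM with LPS + POx-SA, against 32408, 30321 and 30793 CPM with LPS. It was 34396 to 39539 CPM with LPS + PPLG-SA, 35050 to 41402 with LPS + PPLG-2V-SA and 33848 to 38124 with LPS + PPLG-4V-SA. In untreated cells it was 51155 to 59460 CPM. Every library of the other groups lay above all LPS libraries. ND2, a proton-pumping subunit of complex I, had 910, 844 and 942 CPM with LPS + PPLG-2V-SA, against 202, 233 and 188 CPM with LPS, a log2 fold change of 2.11 ± 0.15 (adjusted p = 2.6e-09), with 1.05 for LPS + PPLG-SA and 1.75 for LPS + PPLG-4V-SA. ND1 and cytochrome b (CYTB) rose by 1.38 each with LPS + PPLG-2V-SA relative to LPS + PPLG-SA. ND3 and ND4L had 0 counts in several libraries, and no fold is given for them.

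Among 53 assembly factors, which build the complexes without being part of them, 21 rose and 10 fell with LPS against untreated. Of all tested genes 30.8% rose and 28.4% fell there. With LPS + POx-SA against LPS 6 rose and 14 fell, beside 22.2% and 24.1%. With the PPLG polymers against LPS 7, 12 and 9 rose and 20, 16 and 17 fell. Of all tested genes 29.2%, 30.8% and 28.0% rose and 30.7%, 30.2% and 27.1% fell in these 3 comparisons. Bcs1l, which inserts the Rieske protein into complex III, had 17.8, 16.2 and 19.3 CPM with LPS + PPLG-SA, 4.31, 5.97 and 5.71 CPM with LPS + POx-SA, 8.39, 7.82 and 10.3 CPM with LPS and 2.51, 2.45 and 3.46 CPM in untreated cells. No 2 of these 4 groups overlapped. Its log2 fold change was 1.01 ± 0.14 for LPS + PPLG-SA against LPS (adjusted p = 1.4e-05) and -0.73 ± 0.16 for LPS + POx-SA against LPS (adjusted p = 0.00097). Sco2, a copper chaperone of complex IV, rose by 1.28 with LPS + POx-SA and by 1.41, 1.87 and 1.59 with the PPLG polymers against LPS. Its partner Sco1 rose by 2.03 with LPS against untreated and had a log2 fold change of -0.94 with LPS + PPLG-SA against LPS.

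Of 15 genes for electron carriers and ubiquinone synthesis, 8 rose and 0 fell with LPS against untreated, beside 30.8% and 28.4% of all tested genes. With LPS + POx-SA against LPS 1 rose and 6 fell, beside 22.2% and 24.1%. Coq2, an early enzyme of ubiquinone synthesis, had 23.4, 21.5 and 25.2 CPM with LPS + POx-SA, against 48.4, 43.9 and 46.9 CPM with LPS, a log2 fold change of -0.99 ± 0.10 (adjusted p = 2.8e-07). The groups did not overlap. With LPS + PPLG-SA, LPS + PPLG-2V-SA and LPS + PPLG-4V-SA against LPS, 1, 3 and 2 rose and 6, 5 and 5 fell. Of all tested genes 29.2%, 30.8% and 28.0% rose and 30.7%, 30.2% and 27.1% fell in these 3 comparisons.

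Of 11 tested regulators of nuclear respiratory genes, 6 rose and 3 fell with LPS against untreated, beside 30.8% and 28.4% of all tested genes. With the PPLG polymers against LPS 6, 7 and 6 rose and 2 fell each time. Of all tested genes 29.2%, 30.8% and 28.0% rose and 30.7%, 30.2% and 27.1% fell in these 3 comparisons. Tfam, which packages mitochondrial DNA, had 45.7, 46.0 and 43.9 CPM with LPS + PPLG-2V-SA, against 27.9, 27.1 and 28.5 CPM with LPS + PPLG-SA, a log2 fold change of 0.70 ± 0.16 (adjusted p = 0.0031). Pprc1, a coactivator of respiratory gene expression, rose by 1.21 ± 0.13 with LPS + PPLG-2V-SA against LPS (adjusted p = 5.9e-07). With LPS + POx-SA against LPS, 4 regulators rose and 3 fell, beside 22.2% and 24.1% of all tested genes.

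Tissue and stress isoforms were scarce. AA467197, the mouse paralog that can take the place of Ndufa4, had 0, 0.166 and 0.136 CPM with LPS + PPLG-2V-SA, 1.82, 0.970 and 1.03 CPM with LPS + PPLG-SA, 0.726, 1.30 and 1.39 CPM with LPS + PPLG-4V-SA and 1.04, 0.756 and 0.846 CPM with LPS + POx-SA, against 2.58, 2.09 and 3.06 CPM with LPS. All polymer libraries lay below all LPS libraries. The log2 fold changes were -1.54 for LPS + POx-SA (adjusted p = 0.0029) and -1.02 for LPS + PPLG-SA (adjusted p = 0.021), with adjusted p of 0.065 to 0.089 in that second comparison without LPS replicate 3 or LPS + PPLG-SA replicate 2 or 3. With LPS + PPLG-2V-SA against LPS + PPLG-SA the adjusted p was 0.00011. Cox7a1, a muscle isoform, stayed at 2 to 17 counts per library.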

How the data were processed

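Total RNA from RAW264.7 gave 18 libraries. The deposited count table holds whole-number counts per gene symbol, made by the authors. The deposited FPKM table (22384 genes) was made by the authors and divides by transcript length. Per the submitters' processing notes, the build was GRCm39 and CASAVA was used. Which aligner, counter, annotation and strand mode were used is not given in the sources used here, so reads of processed copies or antisense genes could not be separated.

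Groups came from the labels. Counts were tested in edgeR 4.0.16 (R 4.3.3) by the quasi-likelihood F test: filterByExpr (minimum count 10, total 15), TMM, all 18 libraries in 1 fit (12 residual degrees of freedom), Benjamini-Hochberg adjustment over 13482 genes in each of 9 comparisons, called below 0.05. SE is of the log2 fold change. The self-test on simulated data for LPS against untreated (13123 genes) recovered 35.7% of genes changed 1.5-fold, 74.1% changed 2-fold and 91.9% changed 4-fold, with 3 false calls. For polymers against LPS, 2-fold recovery ran from 54.7% (PPLG-SA, 11 false calls) to 84.7% (POx-SA, 8 false calls). The simulation changed only 200 genes, whereas 7982 of 13482 were called for LPS against untreated, so its rates need not hold for these data. Implied length is the count divided by FPKM and by the library's total count, scaled to bases, for genes with at least 20 counts and 1 FPKM in that library.

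Alternatives were DESeq2 1.42.0 (size factors and test), other filters, only the compared libraries, a replicate block, limma 3.58.1 on log2(FPKM + 1) or log2(FPKM + 0.1), each library left out, and, added after seeing the data, the length offset (lowess span 0.3) and leaving out 3 libraries. Correlations of deviations over 10055 genes between equal-numbered libraries were 0.27, 0.30 and 0.91 for LPS with LPS + POx-SA. They were 0.16, 0.37 and 0.49 for LPS with LPS + PPLG-2V-SA. In no other comparison did all 3 exceed 0.1. These values come from the data and not the labels. Libraries of unequal number were not compared, so pairing by replicate number was not tested.

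Members, gene lists and tests were chosen with earlier results of these data known. The rule for named genes took a panel of subunits, the 8 called members with the largest and 8 with the smallest log2 fold change (4 and 4 in comparisons between polymers) at 5 CPM or more, tissue isoforms, and up to 3 called genes of each list. Atp5c1, S100a8 and any gene named in a comparison outside that rule, such as Uqcrc2 against LPS, were chosen after their values were seen. Sequences and coordinates are not used here. A named gene of the panel is not reported here.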

Additional observations from a re-analysis of the deposited data

How the results depend on the processing

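Counts of members are given as higher and lower. With limma on log2(FPKM + 1), log2(FPKM + 0.1) and log2(FPKM + 1) without a filter, they were 23 and 5, 24 and 5, and 21 and 3 for LPS against untreated. For LPS + PPLG-SA against LPS they were 24 and 9, 24 and 8, and 20 and 7, for LPS + PPLG-2V-SA against LPS 32 and 8, 32 and 8, and 24 and 5, and for LPS + PPLG-4V-SA against LPS 26 and 6, 26 and 6, and 21 and 5. For LPS + PPLG-SA against LPS + POx-SA they were 16 and 11, 16 and 11, and 13 and 10, and for LPS + PPLG-2V-SA against LPS + PPLG-SA 4 and 0, 3 and 0, and 3 and 0. On the first of these scales the median of all genes was 0.31 for LPS against untreated.

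With the length offset, added after seeing the data, 23 were higher for LPS against untreated, 24 higher and 13 lower for LPS + POx-SA against LPS, 30 higher for PPLG-SA, 32 for PPLG-2V-SA and 27 for PPLG-4V-SA, each set against LPS, 24 higher and 17 lower for LPS + PPLG-SA against LPS + POx-SA, 9 higher for LPS + PPLG-2V-SA against LPS + PPLG-SA and 9 lower for LPS + PPLG-4V-SA against LPS + PPLG-2V-SA. Without replicate 3 of LPS and LPS + POx-SA, 52 were lower for LPS against untreated, and, each set against LPS, 33 were higher for POx-SA, 30 for PPLG-SA, 28 for PPLG-2V-SA and 21 for PPLG-4V-SA. In that setting 11 were higher for PPLG-SA against POx-SA, 6 higher and 4 lower for PPLG-2V-SA against PPLG-SA, and 1 higher and 3 lower for PPLG-4V-SA against PPLG-2V-SA. Leaving out LPS + PPLG-2V-SA replicate 3 as well, also added after seeing the data, gave 34, 30, 23, 21 and 11 higher in the same order, 3 higher and 9 lower, and 6 higher.

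With only the 6 libraries compared, 4 were higher and 0 lower for POx-SA against LPS, 8 and 7 for PPLG-2V-SA against PPLG-SA, 1 and 6 for PPLG-4V-SA against PPLG-SA, and 4 and 8 for PPLG-4V-SA against PPLG-2V-SA. With the replicate block added to those fits, the last 3 comparisons gave 9 and 7, 5 lower, and 5 and 7, and the block in all libraries gave 3 higher for PPLG-2V-SA against PPLG-SA. DESeq2 and no filter on low counts each gave 2 higher there. The cause was not tested.

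Leaving out 1 library gave 8 to 16 higher and 21 to 48 lower for LPS against untreated, 9 to 40 and 0 to 7 for POx-SA against LPS, 9 to 19 and 17 to 37 for PPLG-SA, 9 to 15 and 19 to 36 for PPLG-2V-SA and 8 to 15 and 19 to 31 for PPLG-4V-SA against LPS. It gave 2 to 7 and 23 to 52 for PPLG-SA against POx-SA, 0 to 1 and 0 to 2 for PPLG-2V-SA against PPLG-SA, 0 and 0 for PPLG-4V-SA against PPLG-SA, and 0 and 1 for PPLG-4V-SA against PPLG-2V-SA.

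Values of opposite sign were 0.29 for Uqcrc1 (FPKM settings), and -0.30 and -0.31 for Cox5b without replicates 3, in LPS against untreated. They were 0.084 and 0.086 for Fmc1 and, with the offset, 0.22 for Cox5b in PPLG-2V-SA against LPS, 0.10 for Fmc1 and 0.080 and 0.083 for Cox19 in PPLG-4V-SA against LPS, and 0.22 for Uqcrfs1 and 0.070 for Ndufa4 in PPLG-SA against POx-SA, with 0.17 for Ndufa4 with the offset. Of the values of named genes under all settings, 7110 kept their direction and side of the threshold, 416 lost the call, 199 gained it and 22 turned.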
